A study of Ovis aries with 24 samples.

Results

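MYH3, MYH8 and ACTC1 encode sarcomere proteins of developing skeletal muscle, and their signals were followed across 12 groups of sheep muscle. The members were the probe sets whose only annotated gene symbol was one of these 3 names. Each gene had 1 probe set, so 3 of the 24128 probe sets on the array belonged to the set. All 3 passed the filter on low signal, together with 15654 probe sets that were tested in all. The rule reads the annotation and no signal, but the 3 genes were chosen with earlier results of these data known.

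Muscle RNA of Dorset/Suffolk/Rambouillet cross-bred sheep was hybridised to 24 bovine GeneChip arrays, 2 technical arrays for each group. The callipyge mutation enlarges muscles of the loin and hindquarters in growing lambs that received it from their sire alone. The question of the study was which genes underlie that enlargement and which follow from the change of fibre type that comes with it. Longissimus dorsi (LD), a muscle of the back, was sampled at 11 to 12 weeks of age (T12) and within 5 days of birth (T0), at each age in 4 genotypes. These were CN, the paternal heterozygote that carries the callipyge trait (NCpat), CC, the homozygote, NC, the maternal heterozygote (CmatN), and NN, the wild type. Supraspinatus (SS), a muscle of the shoulder, was sampled at T12 in CN and NN lambs. The hind limb muscles coded SM and ST (semitendinosus) were sampled at T12 in NN lambs. The labels name SM in conflicting ways, so only its code is used. The T12 labels also carry the word birth, and the age code of the titles was followed. The protocol describes LD of 8 male lambs, 4 each of NN and NCpat, whereas LD arrays exist for 4 genotypes. How many animals stand behind an array is therefore unknown, and a difference between genotypes cannot be told apart from one between the animals sampled, nor at T0 from one in days of age.

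Myosin heavy chains are the motor proteins of the thick filament, and each muscle fibre uses a few of a family of them. MYH3 is the embryonic form and MYH8 the neonatal (perinatal) form. In mammals both are made in developing fibres, give way to adult fast and slow myosins around and after birth, and return for a time in regenerating fibres. ACTC1 is cardiac alpha-actin, a thin filament actin of the adult heart that is also the main sarcomeric actin of embryonic skeletal muscle before ACTA1, the skeletal alpha-actin, takes over. In RefSeq genes of sheep (assembly ARS-UI_Ramb_v3.0), MYH8 lies in a run of myosin heavy chain genes with MYH13 on one side and MYH1 and MYH2 on the other, and ACTC1 lies on another chromosome. By symbol, 2 of the 3 members were matched in that table.

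The values are MAS5 signals on a linear scale. Array medians lay between 47.4 and 59.7, every array had a 2% trimmed mean near 200.1, and paired arrays had correlations of 0.974 to 0.988 (Pearson's r of log2 signal over bright probe sets). The log2 values of a group's arrays were averaged to 1 group value, here given back as a geometric mean. Differences are log2 differences of group values with the standard error (SE) of limma, and a probe set was called where its Benjamini-Hochberg adjusted p over all probe sets tested was under 0.05. Signals are not compared between probe sets.

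Between T0 and T12, all 3 genes fell in LD of the genotypes without the callipyge trait. MYH3 fell most, 7.87-fold, MYH8 fell 4.38-fold and ACTC1 2.32-fold. At T12 the signals of MYH3 and MYH8 lay below all T0 arrays of LD in each of the 4 muscles, and at T0 they were spread over the genotypes. ACTC1 was among the brightest probe sets at both ages.

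MYH3, the embryonic myosin, had signals of 128.6 and 117.7 on the T12 arrays of NN, against 2854.1 and 2900.6 on the T0 arrays of NN. In CN it had 123.9 and 145.1 at T12, against 1943.6 and 1968.8 at T0. In NC it had 182.2 and 89.4 at T12, against 956.3 and 1014.1 at T0. The lowest T0 signals were those of CC. There MYH3 had 106.3 and 153.7 at T12, against 327.4 and 364.9 at T0. The ages did not overlap, since the highest T12 array of any muscle read 182.2 and the lowest T0 array 327.4.

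MYH8, the neonatal myosin, had 169.2 and 173.0 on the T12 arrays of NN, against 1909.4 and 2030.6 on its T0 arrays. In NC it had 192.5 and 168.2 at T12, against 624.5 and 788.9 at T0. In CC it had 196.8 and 233.8 at T12, against 354.8 and 453.8 at T0. The CC genotype thus had the narrowest gap between ages. In CN the MYH8 signals were 143.6 and 97.6 at T12, against 373.7 and 402.5 at T0. No T12 array of LD exceeded 233.8, and no T12 array of any muscle exceeded 280.7, so the ages did not overlap for MYH8 either. In 9.06% of all probe sets tested the 4 LD group values at T12 lay below all 4 at T0, and MYH3 and MYH8 were among them.

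ACTC1, the cardiac alpha-actin, had 5679.0 and 5154.6 on the T12 arrays of NN, against 23400.6 and 26178.1 on its T0 arrays. In CN it had 3117.2 and 2792.3 at T12, against 22917.1 and 27678.0 at T0. In NC it had 10942.8 and 9128.7 at T12, against 17610.4 and 18860.5 at T0. ACTC1 was thus lower at T12 within each of these genotypes. In CC it had 6442.9 and 6453.5 at T12, against 9963.0 and 9339.1 at T0. Across genotypes the ages overlapped, because the T12 arrays of NC (highest 10942.8) reached the T0 arrays of CC (lowest 9339.1).

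**Figure D1:**
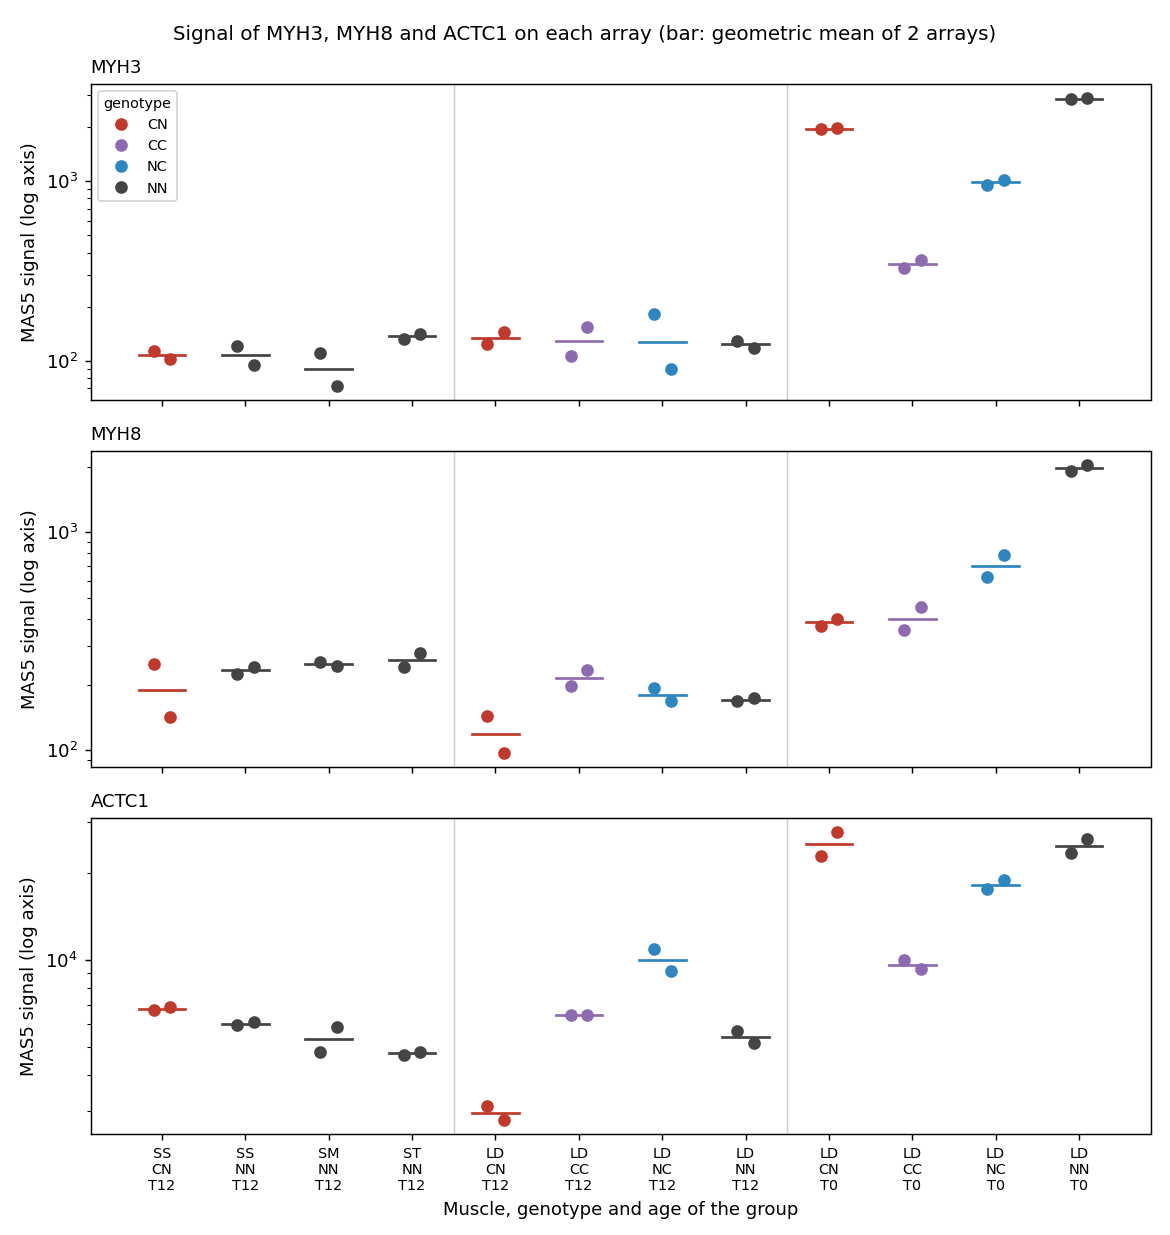
MAS5 signal (log axis) of MYH3, MYH8 and ACTC1 in the 12 groups, with a point for each array, a bar at the geometric mean of its 2 arrays, and colours for genotype. MYH3 at T12 stays at or below 182.2 in every muscle while its T0 arrays run from 327.4 to 2900.6, and the lowest ACTC1 points are those of LD of CN at T12.

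Over CC, NC and NN of LD, MYH3 averaged 126.1 at T12 and 993.1 at T0, a difference of -2.98 ± 0.55 (SE, limma adjusted p = 0.00627, 95% interval -4.19 to -1.76). MYH8 averaged 187.6 at T12 and 821.6 at T0, a difference of -2.13 ± 0.43 (limma adjusted p = 0.00966). ACTC1 averaged 7039 at T12 and 16330 at T0, a difference of -1.21 ± 0.30 (limma adjusted p = 0.0247). All 3 were called lower at T12, where 5.79% of all probe sets tested were called lower. With no trend of the variance on signal in the fit, none of the 3 was called (adjusted p = 0.0834, 0.0948 and 0.146), and 225 probe sets were called in all, against 1830 with the trend. With CC left out, the differences were -3.75 for MYH3, -2.74 for MYH8 and -1.53 for ACTC1, and all 3 were called. The GAPDH signal ratio, 3' over 5' on the log2 scale, a measure of RNA quality, ran in LD from -0.0332 to 0.246 at T12 and from 0.131 to 0.307 at T0. The actin ratio ran from 0.0314 to 0.294 at T12 and from -0.07 to 0.223 at T0, and the part of either in the result was not tested. In whole muscle, fewer fibres that make a transcript and less of it in each fibre cannot be told apart.

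MYH3 at T12 lay at percentiles 62.1 to 72.1 of all probe sets except controls and at 41.9 to 57.1 of those tested, and detection calls were not used. Its T12 level may therefore include background, and the fold of its fall may be understated. MYH8 at T12 lay at percentiles 69.8 to 81.7 of all probe sets except controls and at 53.6 to 72 of those tested. ACTC1 lay at percentile 96.1 or above of the tested probe sets in all 12 groups.

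In CN lambs taken alone, ACTC1 fell by 3.09 ± 0.52 on the log2 scale between T0 and T12 (limma adjusted p = 0.0143), an 8.54-fold lower signal at T12. MYH3 differed by -3.87 ± 0.96 (adjusted p = 0.055) and MYH8 by -1.71 ± 0.75 (adjusted p = 0.253), and neither was called. Of all probe sets, 1.82% were called lower in CN. MYH3 was also called with a floor of 16 on the signal (2 of 3 members called), with any 1 of the 4 CN arrays of LD left out (2 of 3, adjusted p = 0.04 to 0.0481) and with 24 arrays in place of 12 group values (3 of 3). The fit with 24 arrays treats technical arrays as if they carried the spread between animals. No member was called without the variance trend.

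The size of the age step differed between genotypes in a way that could only be described, since each genotype is 1 value at each age. MYH3 was 23.4-fold lower at T12 than at T0 in NN, 14.6-fold in CN, 7.72-fold in NC and 2.7-fold in CC. MYH8 was 11.5-fold lower in NN, 3.28-fold in CN, 3.9-fold in NC and 1.87-fold in CC. The step was widest in NN and narrowest in CC for both myosins. ACTC1 was 8.54-fold lower in CN, 4.57-fold in NN, 1.82-fold in NC and 1.5-fold in CC. Among all probe sets tested, 9.35% were over 2-fold lower at T12 in CN, 7.82% in NN, 7.26% in NC and 5.66% in CC.

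**Figure D2:**
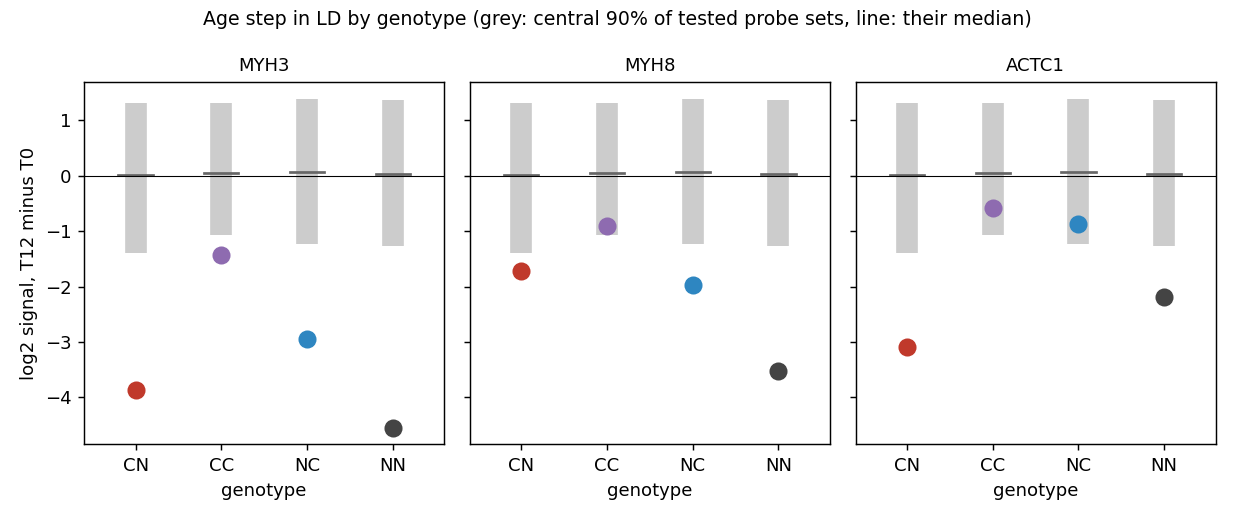
Log2 difference of group values, T12 minus T0, in LD of each genotype for MYH3, MYH8 and ACTC1 (points), with the central 90% of all tested probe sets (grey) and their median (line). The MYH3 points lie below the grey range in all 4 genotypes, from -4.55 in NN to -1.44 in CC, and the ACTC1 points lie below it only in CN (-3.09) and NN (-2.19).

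The interaction, the age step in CN minus that in the other genotypes, was -1.88 ± 0.60 for ACTC1 (unadjusted p = 0.00996, limma adjusted p = 0.415), -0.89 ± 1.10 for MYH3 (adjusted p = 0.893) and 0.42 ± 0.86 for MYH8 (adjusted p = 0.944). No member passed, and limma called 0 of 15654 probe sets in this contrast, with 1392 at an unadjusted p under 0.05. With 24 arrays and a random block for the group, ACTC1 was called (adjusted p = 0.0211), but that fit treats technical arrays as if they carried the spread between animals.

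At T0 the 4 genotypes were spread widely in the myosins. MYH3 was highest in NN at 2877, then CN at 1956, NC at 984.8 and CC at 345.6, with no overlap of arrays between neighbours in this order. NN was highest and CC lowest in 8.95% of probe sets. MYH8 was also highest in NN, at 1969, followed by NC at 701.9. CC at 401.3 and CN at 387.8 came next and their arrays overlapped. ACTC1 was at 25190 in CN and 24750 in NN, which overlapped, then at 18220 in NC and 9646 in CC. CC was thus the lowest genotype for MYH3 and ACTC1, and for MYH8 it shared the lowest level with CN.

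Set against NN at T0, CC was 8.32-fold lower in MYH3, 4.91-fold in MYH8 and 2.57-fold in ACTC1, so all 3 lay over 2-fold lower, as 5.86% of probe sets did. NC was 2.92-fold lower in MYH3, 2.81-fold in MYH8 and 1.36-fold in ACTC1, where 5.46% of probe sets lay over 2-fold lower. CN was 5.08-fold lower in MYH8, 1.47-fold in MYH3 and 1.02-fold higher in ACTC1, where 6.9% of probe sets lay over 2-fold lower. CN lambs thus had MYH3 and ACTC1 nearest to NN and MYH8 nearest to CC. The range over genotypes at T0 was 3.06 on the log2 scale for MYH3, rank 16 among 5679 bright probe sets, whose median range was 0.451. It was 2.34 for MYH8 (rank 37) and 1.38 for ACTC1 (rank 195). Bright probe sets were taken with a cut at 8 on the log2 scale. In LD both myosins lay above that cut at T0 only, in the same groups that were ranked. Their ranks are therefore a description and no independent support.

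**Figure D3:**
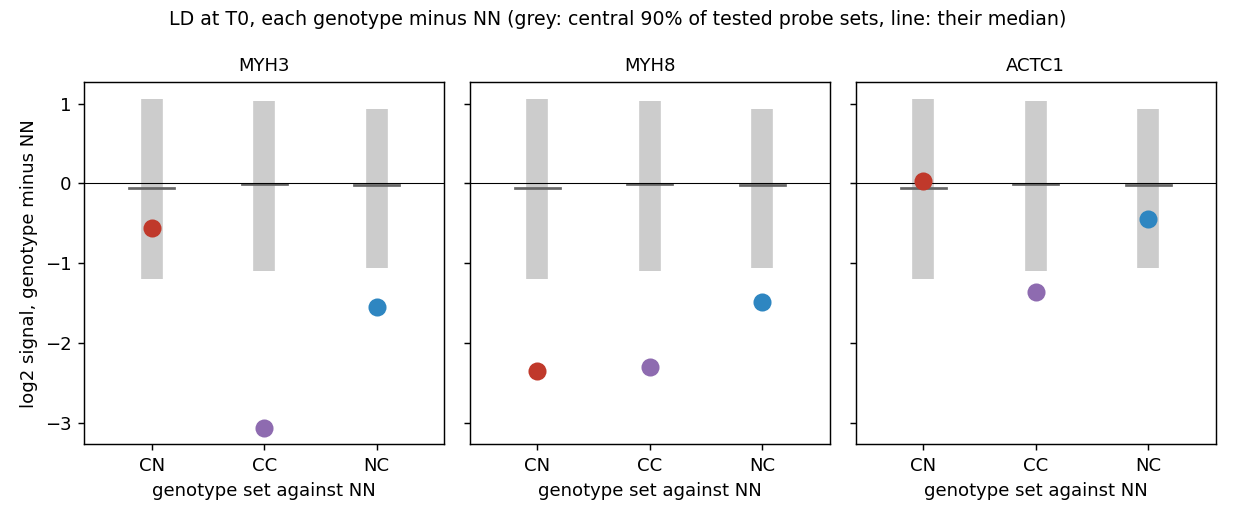
Log2 difference of group values at T0 in LD, each genotype minus NN, for MYH3, MYH8 and ACTC1 (points), with the central 90% of all tested probe sets (grey) and their median (line). CC lies below the grey range in all 3 genes (-3.06, -2.29 and -1.36), NC in the myosins, and CN in MYH8 only (-2.34).

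The additive model over both ages gave -1.50 ± 0.54 for MYH3 in CC minus NN (unadjusted p = 0.0197, limma adjusted p = 0.866), -0.98 ± 0.45 for MYH8 (adjusted p = 0.901) and -0.55 ± 0.47 for ACTC1 (adjusted p = 0.941). In NC minus NN it gave -0.75 ± 0.54 for MYH3, -0.71 ± 0.45 for MYH8 and 0.22 ± 0.47 for ACTC1 (limma adjusted p = 0.995 for each). No member was called in either, where 0.0128% of probe sets were called in each. That model takes 1 difference for both ages, whereas CC minus NN for MYH3 was -3.06 at T0 and 0.055 at T12. It therefore does not test the differences at T0 alone. At T0, CN minus the other genotypes was 0.98 ± 0.78 for MYH3 (limma adjusted p = 0.727), -1.08 ± 0.61 for MYH8 (adjusted p = 0.568) and 0.63 ± 0.43 for ACTC1 (adjusted p = 0.663), with 0.172% of probe sets called and no member. The sign for MYH3 rests on the comparator, since CN was above the mean of the other genotypes and below NN. At T0 the log2 GAPDH ratio, 3' over 5', was 0.23 and 0.225 in CN, 0.131 and 0.216 in CC, 0.29 and 0.302 in NC and 0.246 and 0.307 in NN, lowest on 1 array of CC. The log2 actin ratio overlapped between genotypes, at 0.00873 and 0.223 in CN, 0.165 and 0.193 in CC, 0.196 and 0.0913 in NC and -0.07 and 0.149 in NN. The part of either in these differences was not tested. Skeletal fibre markers summed to 81040 in CN, 98350 in CC, 87570 in NC and 91710 in NN at T0, with CC highest, and fibroblast markers to 47300, 59370, 67430 and 60970 in the same order.

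At T12 the genotypes of LD lay close together in MYH3. It averaged 134.1 in CN, 127.8 in CC, 127.6 in NC and 123.0 in NN, an SD of 0.0509 on the log2 scale at T12 against 1.34 at T0. For MYH8 these SDs were 0.36 at T12 and 1.09 at T0, and for ACTC1 0.729 at T12 and 0.647 at T0. The SD was thus smaller at T12 than at T0 for the myosins and not for ACTC1. The MYH3 value at T12 rests on the mean of the NC arrays (182.2 and 89.4), and with either of them left out the SD was 0.265 or 0.258, still below that at T0. The ACTC1 arrays at T0 read 23.9% to 83.1% of the brightest probe set of their array, where differences may be compressed.

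ACTC1 was lowest of all 12 groups in LD of CN lambs at T12. Both arrays of that group, 3117.2 and 2792.3, read below each of the other 22 arrays, of which the lowest read 4688.3, as did 1.76% of probe sets. CN averaged 2950 and the other genotypes 7039, a difference of -1.25 ± 0.43 (95% interval -2.19 to -0.314, unadjusted p = 0.0136), which was not called (limma adjusted p = 0.316). With 24 arrays and a random block for the group it was called (adjusted p = 0.0229), but that fit treats technical arrays as if they carried the spread between animals. The other genotypes were themselves spread, from 9995 in NC through 6448 in CC to 5410 in NN. The 3' to 5' GAPDH ratio on the log2 scale was -0.0332 and 0.0849 in CN and 0.0663 and 0.0433 in CC, against 0.187 to 0.246 in NC and NN at T12, and its part in the result was not tested. MYH8 was also lowest of the 12 groups there, as 12.4% of probe sets were, at 118.4 in CN and 187.6 in the others, a difference of -0.66 ± 0.61 (limma adjusted p = 0.803). MYH3 differed by 0.09 ± 0.78 (limma adjusted p = 0.988, 95% interval -1.63 to 1.81). The SEs here, in SS and between muscles at T12 pool the spread of CC, NC and NN at both ages. Over the 4 genotypes the SD of MYH3 was 1.34 at T0 and 0.0509 at T12, so its interval reflects mainly the spread at T0. No member was called, where 0.179% of probe sets were.

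In the shoulder muscle SS at T12, which is not enlarged in callipyge animals, ACTC1 had 6698.5 and 6879.6 in CN and 5944.9 and 6080.1 in NN. CN thus lay above NN in SS and below NN in LD. The difference in SS was 0.18 ± 0.52 (95% interval -0.977 to 1.33, limma adjusted p = 1). MYH8 had 249.8 and 142.9 in CN and 224.3 and 241.3 in NN, and the CN arrays lay on both sides of the NN arrays. MYH3 had 112.8 and 102.5 in CN and 120.3 and 94.9 in NN. Neither myosin was called (95% intervals -1.95 to 1.35 for MYH8 and -2.1 to 2.12 for MYH3), and limma called 0 of 15654 probe sets in this contrast, with 656 at an unadjusted p under 0.05. The effect of CN in LD minus that in SS was -1.43 ± 0.67 for ACTC1 (unadjusted p = 0.058, limma adjusted p = 0.996), -0.36 ± 0.97 for MYH8 and 0.08 ± 1.23 for MYH3 (adjusted p = 0.998 for both). None of the 15654 probe sets passed there either, 777 of them having an unadjusted p under 0.05.

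Between muscles at T12, none of the 3 genes was called. SS, SM and ST of NN lambs were set against the mean of CC, NC and NN of LD. MYH3 had 110.6 and 72.7 in SM and 132.3 and 140.9 in ST. MYH8 had 255.3 and 243.7 in SM and 240.1 and 280.7 in ST. ACTC1 had 4804.3 and 5882.4 in SM and 4688.3 and 4808.2 in ST. The F test over LD, SS, SM and ST gave limma adjusted p = 0.971 for MYH3, 0.947 for MYH8 and 0.848 for ACTC1, where 1.28% of probe sets were called. In the pairwise comparisons, SS, SM and ST differed from LD by -0.24, -0.49 and 0.11 for MYH3, by 0.31, 0.41 and 0.47 for MYH8, and by -0.23, -0.40 and -0.57 for ACTC1, with 2.96%, 0.0128% and 0.083% of probe sets called. Against LD of NN alone, a comparison added after the data were seen, the ACTC1 differences were 0.15 for SS, -0.03 for SM and -0.19 for ST, so that of SS changed sign. No member was called there either. SS minus the mean of SM and ST was -0.05 for MYH3, -0.13 for MYH8 and 0.26 for ACTC1, with 0.997% called. The 95% intervals of the differences from LD were widest for MYH3, at -2.21 to 1.23 in SM and -1.61 to 1.84 in ST. In ST they were -0.878 to 1.82 for MYH8 and -1.51 to 0.373 for ACTC1. For each gene, differences inside its own interval remain compatible with the data.

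In the order of levels over all groups, the 8 T12 groups of MYH3 ran from 136.5 in ST and 134.1 in LD of CN down to 89.67 in SM. Their arrays overlapped between neighbours, apart from LD of NN at 123.0 and SS of CN at 107.5. MYH8 at T12 ran from 259.6 in ST to 118.4 in LD of CN, and the LD groups of CN, NC and NN were the 3 lowest. ACTC1 put LD of NC at T12 (9995) beside LD of CC at T0 (9646), whose arrays overlapped. Below these came SS of CN at 6788, LD of CC at 6448, SS of NN at 6012, LD of NN at 5410, SM at 5316, ST at 4748 and LD of CN at 2950. As a description over the 12 groups, Pearson's r was 0.856 between MYH3 and MYH8, 0.899 between MYH3 and ACTC1 and 0.811 between MYH8 and ACTC1. Over the 8 T12 groups it was -0.42, -0.176 and 0.383 in the same pairs, so the likeness over all groups rests on the T0 groups.

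Adult counterparts of the members were not called with age. MYH1, an adult fast myosin heavy chain, differed between T12 and T0 in the other genotypes by 0.12 ± 0.10 (limma adjusted p = 0.479), and ACTA1 by 0.15 ± 0.10 (adjusted p = 0.385). ACTA1 had 31186.8 in CN, 31145.9 in CC, 36629.7 in NC and 33723.3 in NN of LD at T12, against 27820.1, 33402.4, 30162.2 and 28144.6 in the same genotypes at T0. These signals are near the top of the scale: over all arrays ACTA1 read 74.7% to 92.9% of the brightest probe set of its array at T12 and 76.3% to 96.6% at T0, and MYH1 84.4% to 98.1% at T12 and 88.5% to 100% at T0. Their differences with age may be compressed there, so no stability is read from them. The coding sequences of ACTC1 and ACTA1 are nearly alike, as are stretches of the myosin heavy chains, and how far each bovine probe set also binds a related sheep transcript was not tested. Of 7 measured genes on a list of adult myosins, myosin light chains and actin, none was called with age in the other genotypes (median 0.147, against -0.00661 over 7480 symbols). Of all probe sets, 5.9% were called higher there and 5.79% lower. In CN 1 of the 7 was called, MYL3, a slow light chain, with a difference of -2.3 ± 0.52 (adjusted p = 0.0378), where 1.82% of all probe sets were called lower. In LD at T12, MYH7, the slow myosin heavy chain, was lower in CN than in the other genotypes, with a difference of -0.89 ± 0.14 (adjusted p = 0.0491). The other 6 were not called, where 0.179% of all probe sets were called.

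Other genes known from embryonic and neonatal muscle were on a list of 16, of which 10 were measured above the filter. Of these 10, 1 fell with age in the other genotypes and none rose (median -0.533, against -0.00661 over all symbols), a count near the 5.79% of all probe sets called lower. The gene that fell was IGF2, a fetal growth factor, which differed by -1.78 ± 0.12 (limma adjusted p = 4.58e-05) in the other genotypes and by -2.01 ± 0.20 (adjusted p = 0.00473) in CN. Its LD arrays read 1581.0 to 2183.2 at T12 and 5182.4 to 8910.7 at T0 and did not overlap. MYL4, the embryonic light chain, and TNNT2, cardiac troponin T, were dim in LD, with group values of 17.1 to 71.1 at T12 and 14.0 to 100.4 at T0 for MYL4 and of 14.1 to 48.7 at T12 and 21.0 to 49.0 at T0 for TNNT2. Much of this lies around or under the array medians, and neither was called. In CC minus NN at T0 the list had a median of -0.584 (8 of 10 lower, against a median of -0.00574 over all symbols). MYL4, TNNT2 and CKB, the brain-type creatine kinase, were over 2-fold lower there at dim signals. These were 3 of 10, where 5.86% of all probe sets tested lay over 2-fold lower. MYBPH, 1 of the 2 that were higher, read 10267.5 in CC and 6159.6 in NN at T0.

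Partners of myosin and actin in the sarcomere were on a list of 25, of which 17 were measured. With age in the other genotypes 5 of them rose and 1 fell (median 0.194), where 5.9% of all probe sets tested were called higher and 5.79% lower. The fall of 1 of 17 is near that share. Those that rose were TCAP, a Z-disc cap of titin, by 0.92 ± 0.19 (limma adjusted p = 0.0102), ACTN3, the fast-fibre alpha-actinin, by 0.48 ± 0.11 (adjusted p = 0.0151), NEB, the thin filament ruler nebulin, by 0.47 ± 0.10 (adjusted p = 0.0104), and MYOZ1 and TMOD4, each by 0.37. MYOZ2, a Z-disc protein of slow fibres, differed by -0.50 ± 0.15 (adjusted p = 0.0485). In CN 3 rose, ACTN3 by 1.34 ± 0.19 (adjusted p = 0.00803), TMOD4 by 0.93 and MYOZ1 by 0.77, and MYOZ2 fell by 1.10. There 1.58% of all probe sets were called higher and 1.82% lower. At T12, TNNT1, the slow troponin T, was lower in CN, with a difference of -0.97 ± 0.14 (adjusted p = 0.0368), where 0.179% of all probe sets were called.

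Of 9 measured genes for myosin folding and sarcomere assembly, 2 rose with age in the other genotypes and 1 fell (median -0.103, against -0.00661 over all symbols), where 5.9% of all probe sets were called higher and 5.79% lower. The fall of 1 of 9 is near that share. FHOD1, a formin, rose by 0.71 ± 0.19 (limma adjusted p = 0.0358), and KLHL41, a muscle kelch protein, by 0.37 ± 0.09 (adjusted p = 0.024). HSP90AB1, a chaperone, fell by 0.51 ± 0.11 (adjusted p = 0.0149). None was called in CN.

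Myogenic factors and satellite cell genes made up a list of 22, of which 9 were measured. With age in the other genotypes 3 fell and none rose (median -0.326, against -0.00661 over all symbols), where 5.79% of all probe sets were called lower and 5.9% higher. MEF2C, a transcription factor of muscle genes, differed by -1.59 ± 0.22 (limma adjusted p = 0.0015), ITGA7, the muscle laminin receptor subunit, by -0.70 ± 0.17 (adjusted p = 0.0241) and TEAD4, a transcription factor, by -0.69 ± 0.15 (adjusted p = 0.0147). MEF2C read 478.3 to 1021.0 on the LD arrays at T12 and 1045.1 to 3501.1 at T0, and the highest T12 array lay just under the lowest T0 array. In CN MEF2C fell by 1.69 ± 0.38 (adjusted p = 0.0393). MYOD1 and MYOG, the myogenic regulators, were not called.

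**Figure D4:**
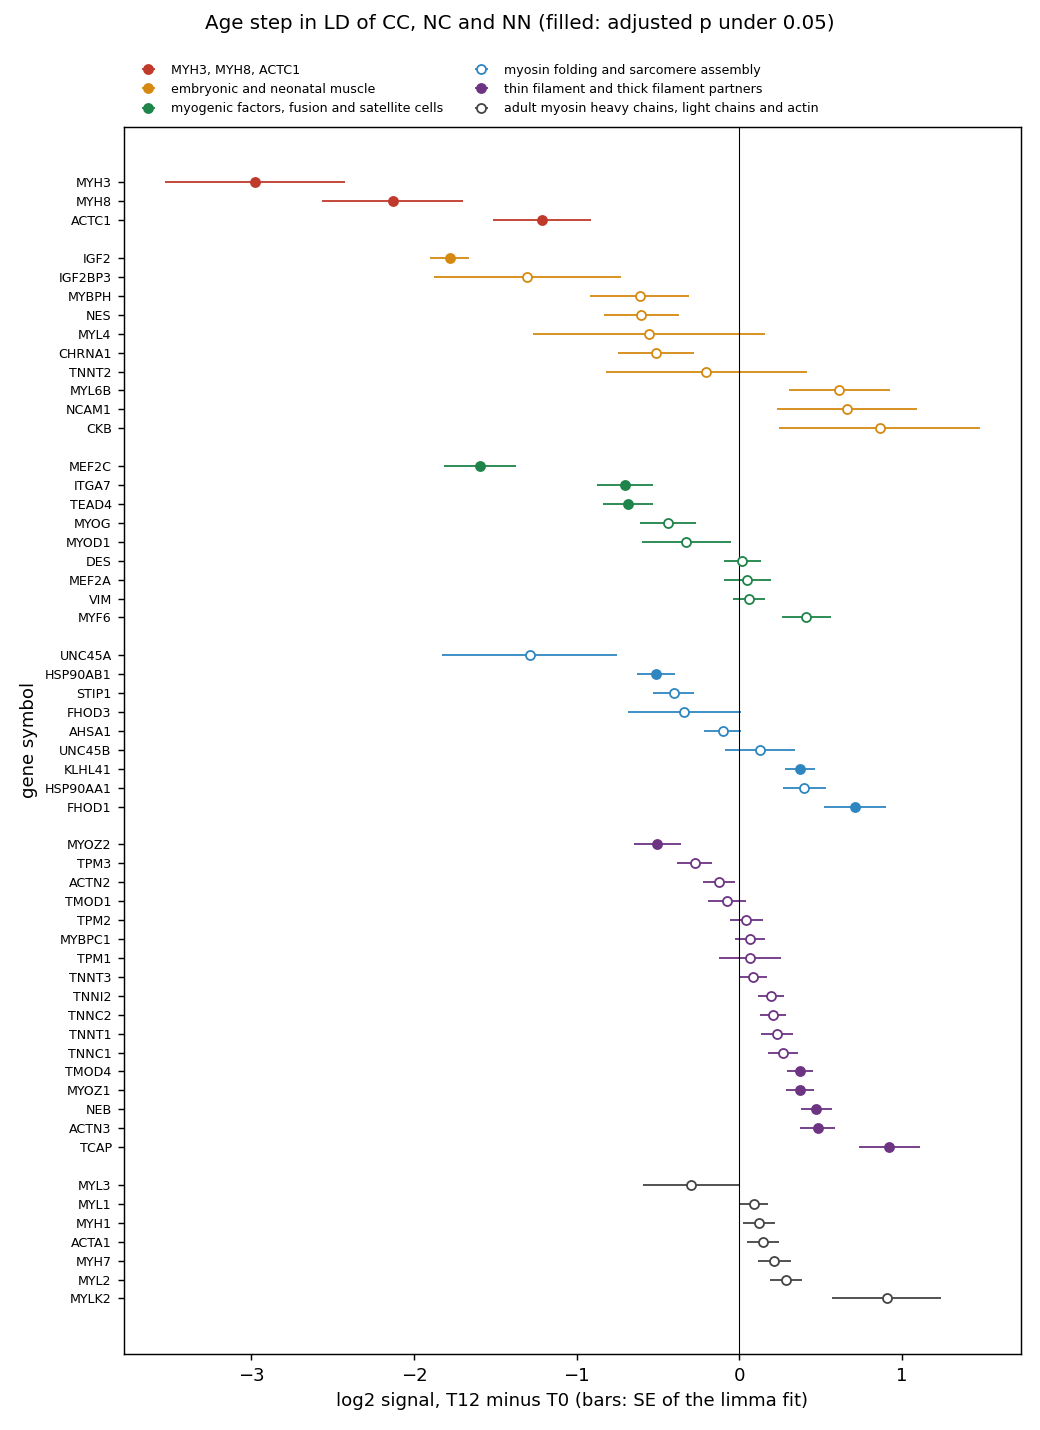
Log2 difference, T12 minus T0, in LD over CC, NC and NN for MYH3, MYH8, ACTC1 and the measured genes of 5 related lists, with bars of 1 SE and filled points where the limma adjusted p was under 0.05. MYH3 at -2.98 and MYH8 at -2.13 lie furthest to the left, followed by IGF2 at -1.78, and ACTA1 (0.15) and MYH1 (0.12) lie near 0.

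Markers of other cell types also differed between the ages. Summed signals of 8 of 8 fibroblast and matrix markers were 31050 to 52190 at T12 and 47300 to 67430 at T0 in LD. The collagens weigh most in these sums. COL1A1 fell by 1.49 ± 0.18 (limma adjusted p = 9.19e-04) and COL1A2 by 0.74 ± 0.13 in the other genotypes. These 2 of 8 were the only ones called, where 5.79% of all probe sets were called lower. The median of the 8 was -0.154, with 6 below 0 and 2, PDGFRA and THY1, above it. The sums of 9 of 10 smooth muscle and pericyte markers were 6700 to 8611 at T12 and 4691 to 5782 at T0. ACTA2, TAGLN and MYH11 rose by 0.46, 0.65 and 0.98 in the other genotypes. These 3 of 9 were called higher, where 5.9% of all probe sets were. For 5 of 8 skeletal fibre markers the sums were 99070 to 117500 at T12 and 81040 to 98350 at T0, and 2 of these 5 were called higher. Sums of 4 of 6 fat cell markers were 303.3 to 800.0 at T12 and 700.4 to 1261 at T0. Endothelial markers (4 of 6) gave 2280 to 2823 at T12 and 1916 to 2540 at T0, blood and immune markers (5 of 8) 383.4 to 501.0 at T12 and 399.6 to 485.9 at T0, and nerve markers (3 of 6) 292.5 to 480.5 at T12 and 259.7 to 409.3 at T0. Of the 5 blood and immune markers, 1 was called lower and 1 higher in the other genotypes, against 5.79% and 5.9% of all probe sets. HBB, a beta-globin, fell by 2.26 and CD3E, of T cells, rose by 1.94. Both were dim. HBB had LD group values of 9.8 to 53.6 at T12 and CD3E of 36.5 to 53.3 at T0, around or under the array medians. HBA, the other globin, had 55.3 to 85.5 at T12 and 59.7 to 100.1 at T0 and was not called. The part of these cell types in the fall of the members was not tested. Beside ACTC1, which adult heart also makes, the 2 measured heart markers were dim in all LD groups, NPPA at 16.4 to 53.6 at T12 and 4.2 to 23.5 at T0 and TNNI3 at 5.5 to 12.6 at T12 and 6.6 to 45.1 at T0.

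The genes whose group values were most like each member over the 12 groups were found by Pearson's r, as a description. They were picked for following the members over these same groups. A shared order of genotypes or a fall with age therefore follows from the choice, and their adjusted p-values are no independent support. For MYH3 these were LANCL1 (0.976), PSAT1 (0.974), FDPS (0.97), SREBF2 (0.969) and DNM1L (0.964). PSAT1, an enzyme of serine synthesis, had group values of 101.0 in CN, 77.74 in CC, 65.95 in NC and 89.65 in NN of LD at T12, against 2479, 92.41, 818.4 and 2718 in the same genotypes at T0. By that choice PSAT1 shared the order of genotypes at T0 with MYH3, and its CC value at T0 lay at about the T12 level of PSAT1. Its age step in the other genotypes was -2.94 ± 0.88 (limma adjusted p = 0.0556).

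For MYH8 the most alike were MEST (0.956), TIMM8A (0.948), NDUFC2 (0.947), SNX7 (0.934) and TBRG4 (0.93). MEST, a paternally expressed imprinted gene, had 519.1 in CN, 396.1 in CC, 726.1 in NC and 1001 in NN at T0, and its age step in the other genotypes was -1.43 ± 0.28 (limma adjusted p = 0.00808). For ACTC1 they were WDR46 (0.962), CHCHD4 (0.94), RBM8A (0.932), PGAM1 (0.931) and RRAS2 (0.927). CHCHD4, of mitochondrial protein import, had an age step of -1.27 ± 0.20 (adjusted p = 0.00303), and PGAM1, a glycolytic enzyme, one of -0.92 ± 0.15 (adjusted p = 0.00343).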

How the data were processed

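The authors deposited 1 linear intensity for each probe set, computed with MAS5 per the submitters' processing notes (MAS5 version not given in the sources used here). Values at or below 1 (5477 of 579072) were set to 1 before log2. Both arrays of a group are technical replicates per the labels, so their log2 values were averaged, and the p-values measure only the spread between group values. Detection calls were not used, and bovine probes may match sheep RNA imperfectly.

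Tests used limma 3.58.1 in R 4.3.3 with its empirical Bayes variance trend, two-sided and Benjamini-Hochberg adjusted. One model took the 12 group values in 8 cells: at each age LD of CC, NC and NN formed 1 cell of 3 values, and every other group its own (residual degrees of freedom 4, prior 6.89). A lone group is taken to vary as those 3 do. The spread at both ages enters every SE of this model, also in comparisons at T12 alone. A second model compared NC and CC with NN in the 8 LD groups, adjusting for age (residual degrees of freedom 3, prior 7.13). After 112 control probe sets were left out, 15654 probe sets above the median log2 signal of 5.64 in at least 1 group were tested.

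Gene symbols follow GEO's platform annotation, in which 13318 probe sets carry 1 symbol, 86 several and 10724 none. Lists used the brightest probe set per symbol, and named genes were the members in every comparison, list genes called in the comparison described (at most 6 in each direction), and the 5 most alike per member. MYL4, TNNT2, CKB, MYBPH, MYH1, ACTA1, MYOD1, MYOG and single cell type markers were named outside this rule after their values were seen. The members and lists were chosen with earlier results of these data known. The fits were tested on simulated data. Alternatives were quantile normalization, no filter, a floor of 16, no variance trend, 24 arrays with a random or replicate block, other comparators, leaving out each array, fits of one age, and LD of NN alone in the muscle comparisons.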

Additional observations from a re-analysis of the deposited data

How the results depend on the processing

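No member changed direction in the fall from T0 to T12 in the genotypes without the trait, and all 3 were called in 30 of 31 alternatives, the exception being the fit without a variance trend (0 called). In CN the count of 1 called member became 2 with a floor of 16, 0 without the trend, 3 with 24 arrays in a random block and 3 with the replicate block, and 1 to 2 when an array was left out. In CN against the other genotypes at T12 and in the interaction, 0 called became 1 (ACTC1) with 24 arrays and 1 with the replicate block (adjusted p = 0.0297 and 0.0275 with the block). The block changed no other call of a member. The replicate numbers did not pair the samples: deviations of same-numbered arrays correlated with r of -0.0698 to 0.1 over 66 pairs of groups, 1 of them over 0.1. Calls over all probe sets ran from 225 to 2868 for T12 minus T0 in the other genotypes, 0 to 1387 in CN, 0 to 417 for CN against the others at T12 and 0 to 580 at T0.

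Signs turned for MYH3 in CN against NN alone at T0 (-0.56) and for ACTC1 in SS against LD of NN alone (0.15). The other signs that turned were of MYH3 values near 0 and of MYH8 values of -0.30 and -0.36 in the main fit. With an array left out, MYH3 ranged from -0.083 to 0.26 for CN against the others at T12, -0.162 to 0.18 for CN minus NN in SS, -0.0922 to 0.25 for the effect of CN in LD minus SS, -0.057 to 0.285 for ST minus LD and -0.22 to 0.12 for SS minus SM and ST. MYH8 ranged from -0.70 to 0.10 for CN minus NN in SS and -0.767 to 0.0389 for the effect of CN in LD minus SS. The fits of one age and those with LD of NN alone in the muscle comparisons were chosen after seeing the data and changed no call of a member. Apart from the fit's construction with 24 arrays, which counts technical arrays, the cause of these changes was not tested. Signal over background limits the MYH3 values at T12, for which detection calls were not used.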
